A study of Mus musculus with 9 samples.

Results

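Fibrinogen transcripts were followed in mouse livers through the genes of its 3 chains, Fga, Fgb and Fgg, together with Fgl1, which encodes a secreted relative. The 4 genes were selected by gene symbol from the 17046 genes listed in the deposited tables. RNA sequencing covered 9 livers of wild-type mice in 3 groups of 3. All mice received an adeno-associated virus of serotype AAV8 by tail vein, with the TBG promoter, which is active in hepatocytes, driving either Mettl3 or a control insert. Mettl3 encodes the catalytic subunit of the enzyme that writes m6A, a methyl mark on messenger RNA. Diets began 3 weeks later and lasted 10 days, ending in a single binge. The groups were Mettl3 virus with ethanol diet and ethanol binge (Mettl3 livers), control virus with ethanol diet and ethanol binge (ethanol-fed livers), and control virus with control diet and maltose binge (pair-fed livers). No group combined the Mettl3 virus with pair feeding. The sample titles read Mettl3OE or WT and name no virus, and the labels give no age, sex or strain. They do not say whether livers came from separate animals, so p-values measure the spread between these samples.

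Fibrinogen is made by hepatocytes as a dimer of paired Aα, Bβ and γ chains, encoded by Fga, Fgb and Fgg, that are folded and joined by disulfide bonds in the endoplasmic reticulum before secretion. Thrombin clips the Aα and Bβ chains to give fibrin, factor XIII crosslinks the clot and plasmin dissolves it. The chain genes are class II acute phase genes, switched on in hepatocytes by interleukin 6 through STAT3 and with C/EBP factors at their promoters. Fgl1 shares the fibrinogen-like domain but does not form clots. It has been described as a hepatocyte growth factor, as a ligand of the T cell receptor LAG-3 and as an antagonist of bone morphogenetic protein signals to hepcidin.

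The chain genes lie side by side on mouse chromosome 3 (build GRCm38) within 42.1 kb. Fgg (Entrez 99571) runs from 83007724 to 83015056, Fga (Entrez 14161) from 83026153 to 83033627, and Fgb (Entrez 110135) from 83042246 to 83049863 on the opposite strand. Fgl1 (Entrez 234199) is on chromosome 8, from 41191434 to 41217978. Promoter windows reaching from 250 bases before to 50 bases after the gene start were taken from RefSeq on GRCm38.p6, which matched 3 of the 4 genes; Fgl1 had no entry. They are shown because the chain genes moved together. Capitals mark matches to CTGGGAA (the core of the interleukin 6 response element), TTCNNNGAA (STAT) or TTGCNNAA (C/EBP).
Fgg, chr3:83007474-83007773, plus strand: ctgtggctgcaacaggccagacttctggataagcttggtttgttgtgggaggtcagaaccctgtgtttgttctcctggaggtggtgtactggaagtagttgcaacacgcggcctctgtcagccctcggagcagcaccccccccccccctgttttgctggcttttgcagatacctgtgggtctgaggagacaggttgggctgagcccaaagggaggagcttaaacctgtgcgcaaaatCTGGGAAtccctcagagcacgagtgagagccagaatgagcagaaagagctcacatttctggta
Fga, chr3:83025903-83026202, plus strand: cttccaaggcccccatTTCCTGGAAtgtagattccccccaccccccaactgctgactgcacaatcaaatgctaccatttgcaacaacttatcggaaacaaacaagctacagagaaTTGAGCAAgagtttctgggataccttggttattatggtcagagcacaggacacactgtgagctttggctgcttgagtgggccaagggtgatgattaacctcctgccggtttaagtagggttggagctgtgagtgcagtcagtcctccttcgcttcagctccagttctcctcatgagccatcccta
Fgb, chr3:83049814-83050113, minus strand: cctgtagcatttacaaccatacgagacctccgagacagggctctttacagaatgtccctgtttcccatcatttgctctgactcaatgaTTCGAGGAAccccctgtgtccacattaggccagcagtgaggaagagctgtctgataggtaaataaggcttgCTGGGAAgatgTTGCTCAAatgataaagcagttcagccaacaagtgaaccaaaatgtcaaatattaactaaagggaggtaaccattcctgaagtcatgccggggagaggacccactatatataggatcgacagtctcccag

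Both strands were searched, and no 2 of the matches overlap. CTGGGAA stood at -13 to -7 from the start in Fgg and at -91 to -85 in Fgb. TTCNNNGAA stood at -234 to -226 in Fga, as TTCCTGGAA, and at -162 to -154 in Fgb, as TTCGAGGAA. TTGCNNAA stood at -135 to -128 in Fga, on the opposite strand and so printed as TTGAGCAA, and at -80 to -73 in Fgb. Fgb thus held all 3 motifs, Fga 2 of them and Fgg 1. Among 32851 RefSeq windows of the same length, 11.14% held CTGGGAA, 8.298% TTCNNNGAA and 10.8% TTGCNNAA. None of the 3 windows held CACGTG (E-box, 7.15% of windows) or TATAAA (13.62%). A match describes letters and is not evidence of binding.

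Values are FPKM as the authors deposited them, that is, counted reads relative to gene length and to sequencing depth. Genes that reached 1 FPKM in 3 or more libraries of a fit were tested together with limma on log2(FPKM + 1), and a gene was called at a Benjamini-Hochberg adjusted p below 0.05. Libraries held 34656256 to 38159563 reads over the listed genes, so counting error is small for genes at these levels. Mettl3, the check of the labels, was at 32.2 ± 6.81 FPKM in Mettl3 livers, 4.69 ± 0.842 in ethanol-fed livers and 3.48 ± 0.447 in pair-fed livers (SD, n = 3 each), and reads of the viral and the mouse gene are not told apart. Of 6 hepatocyte markers, all were listed, summing to 38690 to 47600 FPKM in Mettl3 livers, 43890 to 60020 in ethanol-fed livers and 53200 to 59110 in pair-fed livers. Most of each sum was albumin (Alb), which averaged 34029, 42740 and 44062 FPKM in these groups. Of 6 platelet and megakaryocyte markers 3 were listed, all below 1 FPKM in every liver. Ethanol-fed liver 1 stood apart from livers 2 and 3 of its group, so results are also given without it. In this bulk tissue, fewer cells of a type and less RNA per cell cannot be told apart.

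Fga, the Aα chain that carries the thrombin-cleaved fibrinopeptide A, had 9067, 9367 and 6760.1 FPKM in Mettl3 livers 1 to 3. It had 3409.6, 7274 and 6926 FPKM in ethanol-fed livers and 2645, 1762 and 1709.7 FPKM in pair-fed livers. Each ethanol-fed liver was above each pair-fed liver, while the lowest Mettl3 liver was below the 2 higher ethanol-fed livers. The means were 8398 ± 1426, 5869.9 ± 2138 and 2039 ± 526 FPKM in Mettl3, ethanol-fed and pair-fed livers (SD, n = 3 each).

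Fgb, the Bβ chain that carries fibrinopeptide B, had 15095, 16255 and 12017 FPKM in Mettl3 livers. Ethanol-fed livers had 5677, 12384 and 12123 FPKM, against 5249, 3632 and 3579 FPKM in pair-fed livers. Ethanol-fed liver 1 was just above the highest pair-fed liver, and the other two ethanol-fed livers were above the lowest Mettl3 liver. Means were 14456 ± 2189.8 FPKM in Mettl3 livers, 10061 ± 3799 in ethanol-fed livers and 4153 ± 949 in pair-fed livers (SD, n = 3 each).

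Fgg, the γ chain that takes part in crosslinking and in binding leukocyte and platelet integrins, had 8863, 9698 and 7055 FPKM in Mettl3 livers. Its levels were 3638, 7850.4 and 7554 FPKM in ethanol-fed livers and 2930.0, 2023 and 1994 FPKM in pair-fed livers. The pattern over the 9 livers was that of the other chains, with ethanol-fed liver 1 low in its group and pair-fed liver 1 high in its group. Means were 8539 ± 1351 FPKM in Mettl3 livers, 6347 ± 2351 in ethanol-fed livers and 2316 ± 532 in pair-fed livers (SD, n = 3 each).

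Fgl1 had 1081, 1137 and 959 FPKM in Mettl3 livers, 637, 918 and 831 FPKM in ethanol-fed livers, and 704, 505 and 417 FPKM in pair-fed livers. Here ethanol-fed liver 1 was below pair-fed liver 1, so these groups overlapped, while all Mettl3 livers lay above all ethanol-fed livers. Means were 1059 ± 90.9 FPKM in Mettl3 livers, 795 ± 144 in ethanol-fed livers and 542 ± 147 in pair-fed livers (SD, n = 3 each).

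**Figure D1:**
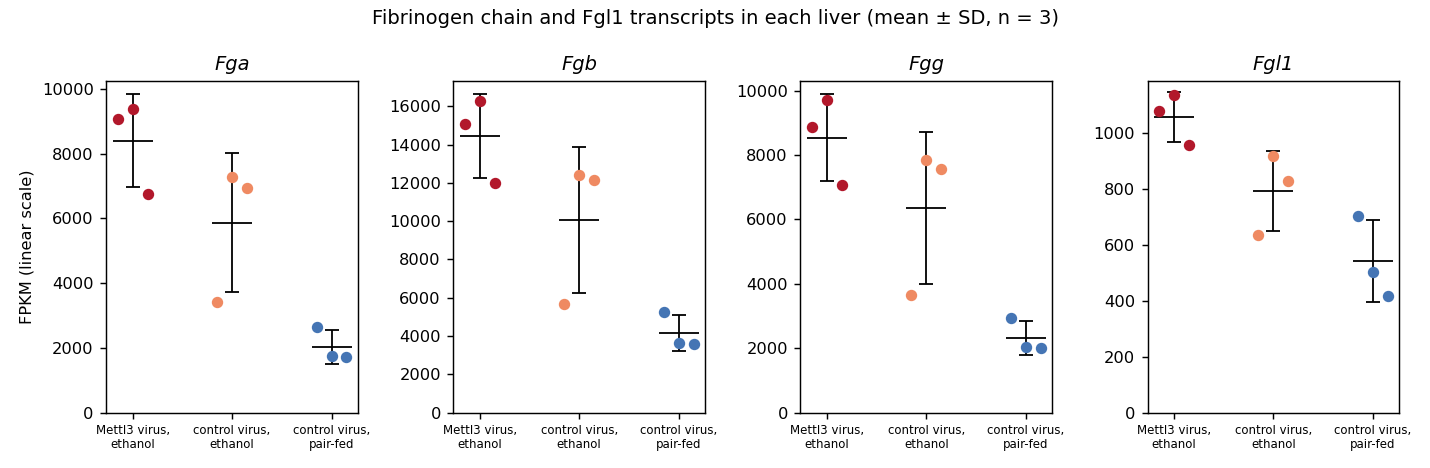
FPKM of Fga, Fgb, Fgg and Fgl1 (vertical axes, linear, different range per gene) in each liver of the 3 groups; points are livers and lines the mean ± SD of 3. Ethanol-fed liver 1 is the low point of its group for each gene, with 5677 FPKM of Fgb where livers 2 and 3 had 12384 and 12123.

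Per length, Fgb was the highest of the 4 genes in every liver, and among all genes by FPKM it ranked 3, 3 and 4 in Mettl3 livers, 10, 4 and 5 in ethanol-fed livers and 10, 17 and 18 in pair-fed livers. Fga ranked 9, 9 and 10 in Mettl3 livers and 23, 31 and 33 in pair-fed livers. Fgl1 ranked 52, 51 and 58 in Mettl3 livers and 69, 102 and 138 in pair-fed livers. The order of the chains rests on the gene lengths that the authors' FPKM imply, which were 3370 bases for Fga, 1705 for Fgb and 2112 for Fgg. The longest coding transcripts in GENCODE M21 are 2587, 3810 and 1741 bases for these genes. In whole reads, not scaled to length, Fga exceeded Fgb in all 6 Mettl3 and ethanol-fed livers (1144924 against 964345 reads in Mettl3 liver 1). Fgb exceeded Fga in all 3 pair-fed livers (335746 against 334405 reads in pair-fed liver 1). Comparisons of 1 gene between livers do not depend on these lengths.

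As a share of all FPKM in a liver, the 3 chains together held 6.86, 7.34 and 5.49% in Mettl3 livers. They held 2.72, 5.88 and 5.49% in ethanol-fed livers and 2.30, 1.60 and 1.58% in pair-fed livers. The mean share was 2.87 percentage points higher in ethanol-fed than in pair-fed livers, with no overlap, and 4.73 points higher in Mettl3 than in pair-fed livers, also with no overlap. Each had p = 0.1 in a two-sided exact permutation test, the smallest that 3 against 3 allows. Between Mettl3 and ethanol-fed livers the difference was 1.86 points, the groups overlapped and the exact p was 0.3. Fgl1 alone held 0.221 ± 0.0164% in Mettl3 livers, 0.168 ± 0.0301% in ethanol-fed livers and 0.116 ± 0.0306% in pair-fed livers (SD, n = 3 each). Over the 18 exact tests of shares and ratios, adjusted p was 0.129 or higher.

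**Figure D2:**
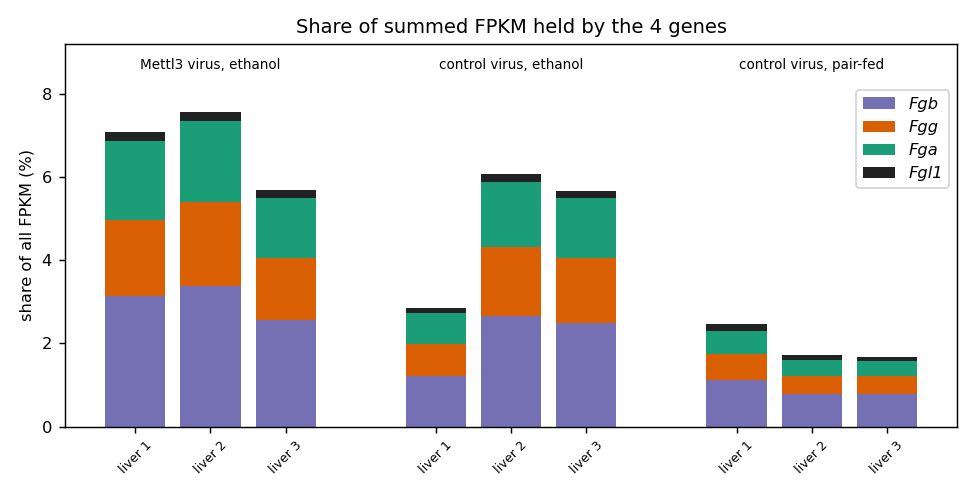
Stacked bars give the percentage of all FPKM held by Fgb, Fgg, Fga and Fgl1 in each of the 9 livers (vertical axis, percent, from 0). The 3 chains reached 7.34% in Mettl3 liver 2, against 1.58% in pair-fed liver 3, and Fgl1 is the thin top segment.

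The first comparison asked how the ethanol diet and binge changed these transcripts in control-virus livers. All 3 chain genes rose, to 2.88 times the pair-fed mean for Fga, 2.42 times for Fgb and 2.74 times for Fgg. The log2 fold changes were 1.48 (SE 0.313, limma adjusted p = 0.0117) for Fga, 1.21 (SE 0.317, adjusted p = 0.0237) for Fgb and 1.40 (SE 0.311, adjusted p = 0.0137) for Fgg. Fgl1 did not pass, at 0.57 (SE 0.216, 95% interval 0.06 to 1.08, limma adjusted p = 0.0756). Against this, 36.0% of the 10064 genes tested were called, 10.0% higher and 26.0% lower, with a median log2 fold change of -0.14 over all genes. Scaling by median-ratio size factors turned the split of 1009 higher and 2616 lower genes into 1773 higher and 1680 lower. By fold change Fga, Fgg and Fgb stood at places 113, 125 and 184 from the top, and Fgl1 at 702. The authors' deposited table, from their own test on counts, lists folds of 3.35 for Fga, 2.82 for Fgb, 3.19 for Fgg and 1.69 for Fgl1. Its q-values were 2.47e-07 for Fga, 1.59e-05 for Fgb, 7.32e-07 for Fgg and 0.00726 for Fgl1, in a table with 26.59% of genes at q below 0.05.

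Single libraries decided some of these calls. Without ethanol-fed liver 1 the limma log2 fold changes were 1.83 for Fga, 1.58 for Fgb, 1.76 for Fgg and 0.72 for Fgl1, and Fgl1 was called (adjusted p = 0.0282). Without pair-fed liver 1 Fgl1 was called as well, at 0.78 (limma adjusted p = 0.0357). Without pair-fed liver 2 or 3, all 3 chains missed the threshold in limma. Adjusted p was then 0.0546 and 0.053 for Fga, 0.0896 and 0.0873 for Fgb and 0.0616 and 0.0592 for Fgg. Fgb missed it too without ethanol-fed liver 2 (0.0694) or 3 (0.0784). Scaling by median-ratio size factors, which moved the all-gene median to 0.01, gave Fgl1 0.76 with a limma adjusted p of 0.0467.

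The Mettl3 virus was then set against the control virus, both under ethanol. Mean FPKM in Mettl3 livers was 1.43 times that of ethanol-fed livers for Fga, 1.44 times for Fgb, 1.35 times for Fgg and 1.33 times for Fgl1, and 0 of the 4 genes passed. The log2 fold changes were 0.58 for Fga (95% interval -0.16 to 1.32), 0.60 for Fgb (-0.16 to 1.36) and 0.50 for Fgg (-0.25 to 1.24). Fgl1 stood at 0.43 (0.03 to 0.83), with no overlap of the groups and an unadjusted limma p of 0.0399 that became 0.641 after adjustment. Adjusted p for the chains was 0.645, 0.645 and 0.673 in limma. Only 0.0103% of the 9706 genes tested, Mettl3 itself, passed in this comparison, and 723 had an unadjusted p below 0.05. The authors' deposited table lists folds of 1.499, 1.503, 1.409 and 1.406 for Fga, Fgb, Fgg and Fgl1, with q from 0.549 to 0.740 and 0.613% of its genes at q below 0.05. Without ethanol-fed liver 1 the log2 fold changes were 0.23 for Fga, 0.23 for Fgb, 0.14 for Fgg and 0.27 for Fgl1.

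Mettl3 livers were also set against pair-fed livers, a difference that combines virus and diet. All 4 genes rose, to 4.12 times the pair-fed mean for Fga, 3.48 times for Fgb, 3.69 times for Fgg and 1.95 times for Fgl1, without overlap. The log2 fold changes were 2.06 (SE 0.30, limma adjusted p = 0.00136) for Fga and 1.81 (SE 0.30, adjusted p = 0.00207) for Fgb. They were 1.89 (SE 0.295, limma adjusted p = 0.00169) for Fgg and 1.00 (SE 0.203, adjusted p = 0.00447) for Fgl1. Of the 10229 genes tested, 48.8% were called, 13.9% higher and 34.9% lower, with an all-gene median of -0.18. Median-ratio scaling gave 2587 higher and 2212 lower genes, in place of 1424 and 3572. None of the 4 calls was lost without any single library, with adjusted p of at most 0.021. The pair-fed livers are shared with the first comparison.

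**Figure D3:**
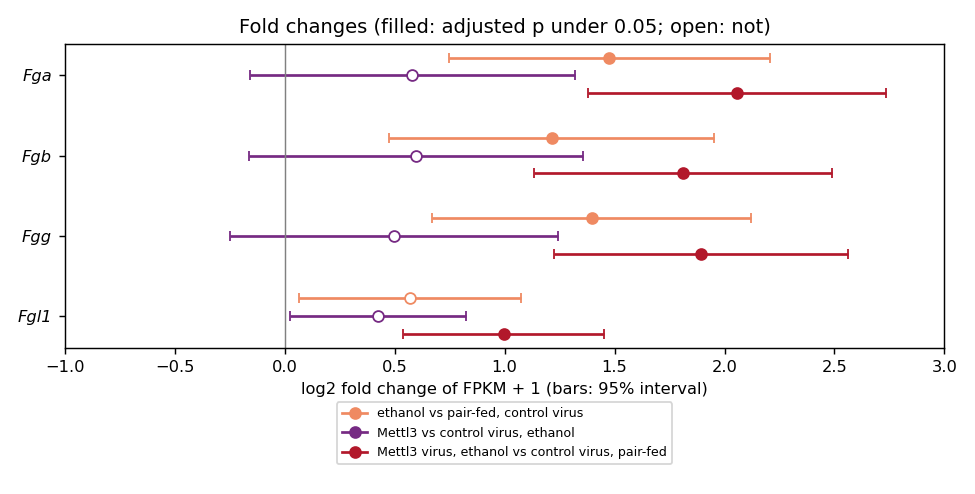
Log2 fold change of FPKM + 1 (horizontal axis) for the 4 genes in 3 comparisons; bars are 95% intervals and filled points passed an adjusted p of 0.05 in limma. The intervals of Mettl3 against ethanol-fed livers span 0 for the 3 chains, with 0.58 for Fga, and lie just above 0 for Fgl1.

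The chains kept a narrow ratio to each other within each liver, and for Fgb to Fgg each group had its own range. Fgb to Fgg stood at 1.70, 1.68 and 1.70 in Mettl3 livers, 1.56, 1.58 and 1.60 in ethanol-fed livers, and 1.79, 1.80 and 1.79 in pair-fed livers. The 3 groups did not overlap, although the levels themselves varied by up to 2.18 times within a group. On the log2 scale the ratio differed by -0.18 between ethanol-fed and pair-fed livers, 0.10 between Mettl3 and ethanol-fed livers and -0.08 between Mettl3 and pair-fed livers. Each had an exact permutation p of 0.1, the smallest possible. Fga to Fgb averaged -0.79 ± 0.0479 in Mettl3 livers, -0.77 ± 0.0362 in ethanol-fed livers and -1.03 ± 0.0397 in pair-fed livers (log2, SD, n = 3 each). Both ethanol groups lay above the pair-fed group (exact p = 0.1 each) and overlapped each other (exact p = 0.8). Fga to Fgg averaged -0.03, -0.11 and -0.19 in Mettl3, ethanol-fed and pair-fed livers, with no overlap of any pair. These differences do not depend on the gene lengths or on library scaling.

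The Fgl1 level differed less between groups than those of the chains. The log2 ratio of Fgl1 to the mean of the 3 chains was -3.30 ± 0.112 in Mettl3 livers, -3.16 ± 0.369 in ethanol-fed livers and -2.40 ± 0.129 in pair-fed livers (SD, n = 3 each). It was 0.76 lower in ethanol-fed than in pair-fed livers and 0.90 lower in Mettl3 than in pair-fed livers, with no overlap and an exact permutation p of 0.1 each. Between Mettl3 and ethanol-fed livers it differed by -0.14 (exact p = 0.8).

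**Figure D4:**
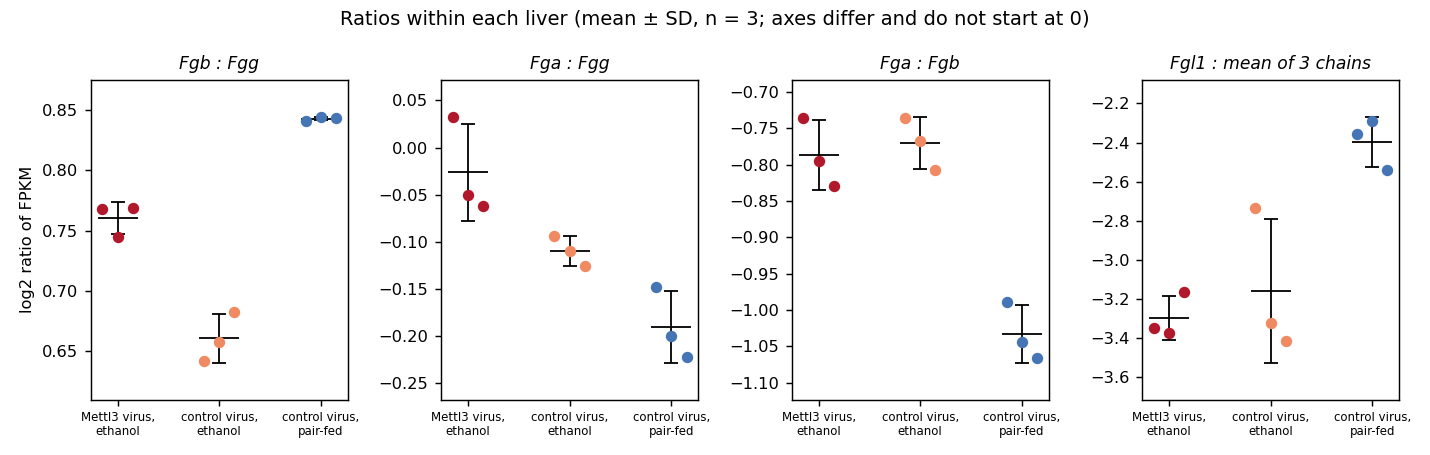
Log2 ratios of FPKM within each liver for 4 pairs (vertical axes differ and do not start at 0); points are livers and lines the mean ± SD of 3. Fgb to Fgg averages 0.76 in Mettl3 livers, 0.66 in ethanol-fed livers and 0.84 in pair-fed livers, and the 3 groups do not overlap.

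Ethanol-fed liver 1 was low in other transcripts as well. The 21 other listed acute phase genes summed to 16808 FPKM in it, against 47217 and 43473 in ethanol-fed livers 2 and 3, and it was the lowest of its group for 19 of the 21. The same sum was 58839, 65641 and 37862 FPKM in Mettl3 livers and 10062, 7832 and 7968 in pair-fed livers. Mettl3 liver 3, the lowest of its group for each of the 4 genes, was thus the lowest in this sum too, and pair-fed liver 1, the highest for each, was the highest. Of 6 neutrophil markers 3 were listed, summing to 7.52 FPKM in ethanol-fed liver 1, up to 65.3 in the other ethanol-fed livers, 45.5 to 93.1 in Mettl3 livers and 5.86 to 8.96 in pair-fed livers. The 6 Kupffer cell markers were all called lower in ethanol-fed than in pair-fed livers, beside 26.0% of all genes. They summed to 85.4 to 170.5 FPKM in Mettl3 livers, 103 to 158.5 in ethanol-fed livers and 207 to 232 in pair-fed livers. Sinusoidal endothelial markers had 4 of 6 lower and 1 higher, and stellate cell markers 3 of 6 lower and 1 higher. The hepatocyte, cholangiocyte and erythroid lists each had 1 higher and 0 lower, of 6, 4 and 5 tested, beside 10.0% of all genes higher. In the Kupffer cell and hepatocyte sums ethanol-fed liver 1 was the highest of its group (158.5 and 60020 FPKM). Alb, which is also on the negative acute phase list, gave 47900 FPKM of that hepatocyte sum. The part of these cell types in the fibrinogen result was not tested. Beside albumin, a comparison chosen after the values were seen, the chains summed to 0.885, 1.17 and 0.745 of the Alb level in Mettl3 livers. They summed to 0.266, 0.783 and 0.589 of it in ethanol-fed livers and to 0.236, 0.168 and 0.173 in pair-fed livers.

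Among 19 regulators of fibrinogen transcription, 4 were higher, 5 lower and 10 not called in ethanol-fed against pair-fed livers, at a median log2 fold change of 0.18 beside -0.14 for all genes. Of all genes 10.0% were higher and 26.0% lower, and the lower count of the list is at that share. Cebpd, an acute phase C/EBP factor, rose by 1.32 (limma adjusted p = 0.00664), and Cebpb, which binds interleukin 6 response elements, by 0.58 (adjusted p = 0.0235). Cebpa, the C/EBP factor of resting hepatocytes, fell by 0.92, the kinase Jak2 by 0.45 and the E-box factor Usf1 by 0.59. The interleukin 6 receptor genes Il6ra and Il6st stood at -0.22 and 0.27, and Stat3 at 0.62 (limma adjusted p = 0.104), none called. Socs3, the feedback inhibitor of STAT3, stood at 0.61 (adjusted p = 0.552 in limma), with 1.38 to 22.2 FPKM among ethanol-fed livers and 3.86 to 6.93 among pair-fed livers. The liver factor Hnf4a (-0.01) was not called. Ethanol-fed liver 1 decided several of these calls. Without it 8 of the list were higher and 5 lower, beside 1098 higher and 3645 lower of 9879 genes. Il6st (0.47, limma adjusted p = 0.0152), Stat3 (0.86, 0.0206) and Socs3 (1.60, 0.00346) were then called higher. Under median-ratio scaling 6 were higher and 3 lower, beside 1773 higher and 1680 lower of 10064 genes.

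Between Mettl3 and pair-fed livers, 9 of these regulators were higher and 5 lower, also at a median of 0.18, beside -0.18 for all genes, of which 13.9% were higher and 34.9% lower. Il6st rose by 0.71, Stat3 by 0.85, Socs3 by 2.06, Cebpd by 1.45, Cebpb by 0.81 and the receptor gene Tnfrsf1a by 0.84. Cebpa fell by 1.00 and Jak2 by 0.52. Il6ra (-0.47) and Hnf4a (0.18) were not called. In Mettl3 against ethanol-fed livers 0 of the 19 were called, with Socs3 at 1.45 (limma adjusted p = 0.645), Il6st at 0.44 and Stat3 at 0.23. Without ethanol-fed liver 1 these stood at 0.46 for Socs3, 0.24 for Il6st and -0.01 for Stat3.

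Folding, assembly and secretion genes, which carry the chains through the endoplasmic reticulum, had 9 of 18 members higher and 0 lower in ethanol-fed against pair-fed livers, at a median of 0.62. Among all genes 10.0% were higher and 26.0% lower. The chaperone gene Hspa5 rose by 2.23 (limma adjusted p = 0.0105) to 972 ± 565 FPKM in ethanol-fed livers, against 183 ± 48.3 in pair-fed livers (SD, n = 3 each). Xbp1, a factor of the unfolded protein response, rose by 1.18, the translocon gene Sec61a1 by 0.89, and Lman1, a cargo receptor for clotting factors, by 0.52. Without ethanol-fed liver 1, 13 of the 18 were higher, beside 1098 of 9879 genes. Of the 18, 15 were higher and 0 lower in Mettl3 than in pair-fed livers, at a median of 1.13, beside 13.9% higher and 34.9% lower of all genes. Hspa5 stood there at 2.99, Sec61a1 at 1.47, Xbp1 at 1.42, the disulfide isomerase gene P4hb at 0.99 and Lman1 at 0.68. In Mettl3 against ethanol-fed livers the median was 0.43, with 0 called; Hspa5 stood at 0.75 and Lman1 at 0.16. Without ethanol-fed liver 1 the median was 0.27, with Hspa5 at 0.21 and Lman1 at 0.15.

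The genes that cut, crosslink and dissolve fibrin went both ways. Of 18 listed, 14 were tested between ethanol-fed and pair-fed livers, with 5 higher, 5 lower and 4 not called, at a median of -0.24, beside 10.0% higher and 26.0% lower of all genes. Thbd, the thrombin receptor thrombomodulin, rose by 2.07, with 9.91 ± 6.83 FPKM in ethanol-fed livers and 1.30 ± 0.0354 in pair-fed livers (SD, n = 3 each). Cpb2, the carboxypeptidase that slows fibrin breakdown, rose by 0.72 (limma adjusted p = 0.00741). F13b, the carrier subunit of factor XIII, fell by 0.77 and Serpind1, heparin cofactor II, by 0.86. Prothrombin (F2) fell by 0.31 and plasminogen (Plg) by 0.34, calls that were lost under median-ratio scaling. That scaling left 2 of the list lower, beside 1680 of 10064 genes. The plasmin inhibitor gene Serpinf2 stood at -0.32 (limma adjusted p = 0.0726).

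In Mettl3 against pair-fed livers 15 of the 18 were tested, with 6 higher and 6 lower, beside 13.9% higher and 34.9% lower of all genes. The lower count is near that share. Median-ratio scaling gave 6 higher and 3 lower, beside 2587 higher and 2212 lower of 10229 genes. The crosslinking enzyme gene Tgm2 rose by 1.57, Cpb2 by 1.06 and S100a10, part of a plasminogen receptor, by 0.87. F13b fell by 0.87 and F2 by 0.34, the F2 call being lost under median-ratio scaling. Plg (-0.21) and Serpinf2 (-0.12) were not called. In Mettl3 against ethanol-fed livers 0 of 15 were called; F2 stood at -0.03, Plg at 0.13 and Serpinf2 at 0.20.

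None of the other tested genes with a fibrinogen-like domain was called higher, the direction of the chains. Of 18 listed, 6 passed the filter, and between ethanol-fed and pair-fed livers 0 were higher and 3 lower, at a median of -0.50, beside 10.0% higher and 26.0% lower of all genes. Angptl2 fell by 0.89, Angptl6 by 0.89 and the ficolin gene Fcna by 0.45, of which Fcna was not called under median-ratio scaling. In Mettl3 against pair-fed livers 0 were higher and 5 lower, at a median of -0.84, beside 34.9% lower of all genes. Median-ratio scaling gave 3 lower, beside 2212 of 10229 genes. Angptl2 fell by 1.25, Angptl6 by 1.27 and Fcna by 0.52, Fcna again without a call under median-ratio scaling. The median between Mettl3 and ethanol-fed livers was -0.29, with 0 called.

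Of 12 receptor genes for fibrinogen and Fgl1, 7 were tested between ethanol-fed and pair-fed livers, and 2 were higher and 0 lower, at a list median of 0.01. The shares over all genes were 10.0% higher and 26.0% lower. The integrin gene Itgb3 rose by 0.61, and Icam1, an endothelial adhesion molecule that binds fibrinogen, by 0.98. Itgb3 passed the filter only through the ethanol-fed livers (1.48 to 2.76 FPKM), with 0.757 to 0.990 FPKM in pair-fed livers. Its direction was thus partly fixed by the filter, and without ethanol-fed liver 1 Itgb3 no longer entered the test. Mettl3 against pair-fed livers had 8 tested, with 2 higher and 1 lower, at a median of -0.11. Among all genes 13.9% were higher and 34.9% lower. Icam1 rose by 1.27 and Itgam, the leukocyte integrin chain that binds fibrinogen, by 0.65, while Itgb1 fell by 0.32, a call lost under median-ratio scaling. Itgam was below 1 FPKM in every pair-fed liver (0.717 to 0.977) and passed the filter through the ethanol diet groups. With ethanol-fed liver 1 left out of the fit, 2 were lower, beside 3796 of 10159 genes. In Mettl3 against ethanol-fed livers 0 were called, at a median of -0.08. Lag3, the T cell receptor bound by Fgl1, averaged 0.186 FPKM in Mettl3 livers, 0.240 in ethanol-fed livers and 0.197 in pair-fed livers, and did not pass the filter.

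The bone morphogenetic protein and hepcidin list, which Fgl1 bears on, had 1 of 14 higher and 6 lower in ethanol-fed against pair-fed livers, at a median of -0.39, beside 26.0% of all genes lower. The ligand gene Bmp6 fell by 0.77, the protease gene Tmprss6 by 0.75, Tfr2 by 0.63 and the inhibitor Smad7 by 0.72. Bmp6 passed the filter only through the pair-fed livers (1.54 to 2.20 FPKM), with 0.518 to 0.816 FPKM in ethanol-fed livers. Its direction was thus partly fixed by the filter, and the 6 lower include it. Under median-ratio scaling 4 were lower, beside 1680 of 10064 genes. Hamp, which encodes hepcidin, stood at -1.64 (limma adjusted p = 0.102), and without ethanol-fed liver 1 it was called at -0.72 (limma adjusted p = 0.0116). In Mettl3 against pair-fed livers 0 were higher and 6 lower, at a median of -0.52, a lower count near the 34.9% of all genes. Id1, a target of these signals, fell by 1.31, Tmprss6 by 1.02, Bmp6 by 0.95 and the receptor gene Bmpr1a by 0.57. Bmp6 again reached 1 FPKM only in pair-fed livers, with 0.376 to 0.680 FPKM in Mettl3 livers. Hamp stood at -1.04 and was not called (limma adjusted p = 0.202). With ethanol-fed liver 1 left out of the fit Hamp kept that value and was called (limma adjusted p = 0.00416). In Mettl3 against ethanol-fed livers 0 of 13 were called, at a median of -0.13, and Hamp stood at 0.61, or at -0.31 without ethanol-fed liver 1.

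The other acute phase genes were the list nearest to the chains in direction. Of 21, 17 were higher and 0 lower in ethanol-fed against pair-fed livers, at a median of 1.47. The shares over all genes were 10.0% higher and 26.0% lower. Without ethanol-fed liver 1, 18 of the 21 were higher, beside 1098 of 9879 genes. The 4 called members with the smallest p changed far more than the chains. Outside these 4, Lcn2, named after its value was seen, rose by 5.72 (limma adjusted p = 0.00181). Saa2 and Saa1, serum amyloid genes that are near-identical copies, rose by 7.12 and 6.64, and the orosomucoid genes Orm2 and Orm3 by 4.42 and 3.34, copies whose reads may also be split. In Mettl3 against pair-fed livers 18 of 21 were higher and 0 lower, at a median of 2.15, beside 13.9% higher and 34.9% lower of all genes. The 4 called members with the smallest p were Saa2 at 8.29, Saa1 at 7.65, Orm2 at 4.36 and the protease inhibitor gene Serpina3n at 3.88. The median between Mettl3 and ethanol-fed livers was 0.59 with 0 called, beside -0.04 for all genes, and 0.21 without ethanol-fed liver 1, beside 0.01.

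Of 12 negative acute phase genes, 2 were higher and 1 lower in ethanol-fed against pair-fed livers, at a median of -0.24, or 2 and 5 without ethanol-fed liver 1. Among all genes 10.0% were higher and 26.0% lower with all livers in the fit. Without ethanol-fed liver 1, 1098 of 9879 genes were higher and 3645 lower. Serpina6, the corticosteroid carrier, fell by 1.76, while Apoa4 rose by 1.69 and Ahsg by 0.56. Mettl3 against pair-fed livers gave 1 higher and 5 lower, at a median of -0.31, near the 13.9% higher and 34.9% lower of all genes. Median-ratio scaling gave 2 and 3, beside 2587 higher and 2212 lower of 10229 genes. With ethanol-fed liver 1 left out of the fit there were 2 and 6, beside 1492 higher and 3796 lower of 10159 genes. Serpina6 fell by 2.45, the retinol carrier gene Rbp4 by 0.98 and Ttr by 0.70, while Apoa4 rose by 1.21. Between Mettl3 and ethanol-fed livers the median was -0.16, or -0.06 without ethanol-fed liver 1, with 0 called.

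**Figure D5:**
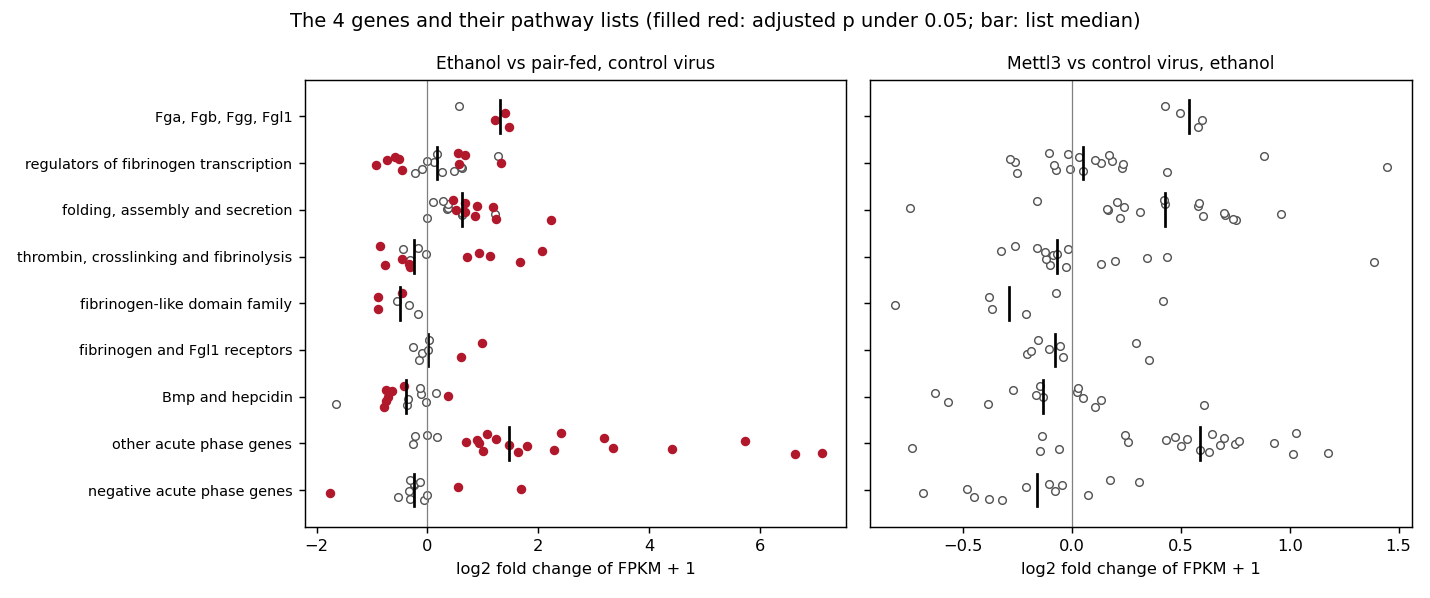
Log2 fold change of FPKM + 1 (horizontal axes, different ranges) of the 4 genes and of each member of 8 lists, for ethanol-fed against pair-fed livers (left) and Mettl3 against ethanol-fed livers (right); red points passed an adjusted p of 0.05 in limma and bars are list medians. On the left the other acute phase genes have a median of 1.47 and the fibrinogen-like domain family of -0.50, and on the right no point passed.

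The genes whose profile over the 9 livers was most like that of the chains were sought by the root-mean-square difference of centred log2(FPKM + 1) among 10229 genes. Each chain is part of the mean of the chains, so the chains were compared with each other instead. Fga and Fgb differed by 0.125, Fga and Fgg by 0.0736 and Fgb and Fgg by 0.0753. Against the mean of the chains, the nearest other genes were Itih4 (0.124), Slc39a14 (0.128), Hpx (0.147), Alg12 (0.152) and Dnajb11 (0.159). Itih4 and Hpx encode acute phase plasma proteins, Slc39a14 a zinc and iron importer, and Alg12 and Dnajb11 act in glycosylation and folding in the endoplasmic reticulum. Itih4 averaged 3216 FPKM in Mettl3 livers, 2358 in ethanol-fed livers and 945 in pair-fed livers. Fgl1 differed from the mean of the chains by 0.450. The genes nearest to Fgl1 itself were Cptp (0.116), Srsf3 (0.118), Mlec (0.123), Srpr (0.124) and Il13ra1 (0.127). Srsf3 encodes a splicing factor, while Mlec and Srpr encode a lectin and a signal recognition receptor of the endoplasmic reticulum.

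Neighbours of the chain genes had far lower levels. Plrg1, which encodes a splicing factor and lies next to Fgb, averaged 23.5 FPKM in Mettl3 livers, 15.2 in ethanol-fed livers and 10.5 in pair-fed livers. It stood at 0.48 in ethanol-fed against pair-fed livers (limma adjusted p = 0.0781) and rose by 1.07 in Mettl3 against pair-fed livers (adjusted p = 0.00431). Lrat, a retinol esterifying enzyme of stellate cells on the Fgg side, fell by 0.59 in ethanol-fed against pair-fed livers (limma adjusted p = 0.0311). The non-coding gene Gm30097 overlaps the start of Fgg and averaged 1.49 FPKM in Mettl3 livers, 1.25 in ethanol-fed livers and 0.666 in pair-fed livers. Its reads and those of Fgg cannot be told apart where they overlap, since the strand setting is not stated.

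Since Mettl3 writes m6A, the transcripts were searched for GGACT, a form of the sequence it favours; m6A itself was not measured. The longest coding transcripts in GENCODE M21 held 6 copies in Fga (2.32 per kb), 1 in Fgb (0.262 per kb), 3 in Fgg (1.72 per kb) and 2 in Fgl1 (1.79 per kb). Over 21877 genes, 87.62% held at least 1 copy and the median was 1.008 per kb. The single copy in Fgb and 1 of those in Fgg are shown with the motif in capitals, to set the chain with the lowest density beside another.
Fgb, position 1107 of its transcript: gaaatggaGGACTggaaagga
Fgg, position 902 of its transcript: agcactgcGGACTatgccatg
Fgb and Fgg stood at log2 fold changes of 0.60 and 0.50 in Mettl3 against ethanol-fed livers, neither called. A match is not a methylated site.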

How the data were processed

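RNA of 9 mouse liver samples was sequenced, and groups were taken from the sample titles. Per the submitters' processing notes, fastp, HISAT2 and HTSeq were used with mouse build mm10; versions and strand setting are not given in the sources used here. The authors deposited 2 tables of 16842 and 16470 genes with FPKM per library. Per the file headers, further columns give a normalized signal averaged over libraries, a linear fold (ratio), its log2, and the p-value and q-value of the authors' DESeq2 test. The ethanol-fed libraries are in both tables and differed by at most a relative 1.08e-06, so all 9 share a scale.

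Whole reads could be recovered for 100% of genes within a tolerance of 0.05. Because the deposited unit is FPKM, the test was limma 3.58.1 (R 4.3.3, trended, robust) on log2(FPKM + 1), as foreseen for this unit. That scale understates changes of low genes. A count test was foreseen only for files of read counts. Fits used 6 libraries, or 9 for Mettl3 against pair-fed livers. All p-values were adjusted over all genes tested; shares and ratios used two-sided exact permutation tests. Fits were tested on simulated data. Python 3.11.15 with numpy 2.4.6, pandas 2.3.3, scipy 1.17.1 and matplotlib 3.10.9 did the rest.

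Alternatives were a pseudocount of 0.1, no filter, median-ratio scaling, other libraries in the fit, each library left out, the replicate number as a block, and limma-voom on recovered reads. The 4 genes and the gene lists were chosen with earlier results of these data known. Named in the text are a preset group of regulators and clotting genes, up to 4 called members with the smallest p per list and comparison, and the 5 genes most like each profile. Other genes are marked where chosen after their values were seen, apart from the flanking genes, which were picked by position. A few genes that this rule names are left out of the text.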

Additional observations from a re-analysis of the deposited data

How the results depend on the processing

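Under the alternatives other than leaving out libraries, 138 values of the 4 genes, their shares and ratios and the counts of all genes called were recomputed. Of these, 133 were unchanged. For fits this means the same direction and side of the threshold, and for counts of genes called a change within 1.5 times. Shares and ratios could change only in direction, since their exact p cannot go below 0.1, so their part of the 133 says nothing about the threshold. The rest were as follows. Among recomputed counts of list members, 87 stayed within 1.5 times and 9 did not, most of them given beside the lists. The 87 include every count of Mettl3 against ethanol-fed livers. There 0 list members were called in each setting, so that part says little about stability. Under median-ratio scaling Fgl1 passed in ethanol-fed against pair-fed livers, at 0.76 (limma adjusted p = 0.0467). The count of genes called in Mettl3 against ethanol-fed livers, 1 in the fit reported, was 0 with no filter on low values and 3 with all 9 libraries in the fit. With the replicate number as a block that count was also 0, and Fgb in ethanol-fed against pair-fed livers stood at 1.21 with a limma adjusted p of 0.0534. The replicate block gave 2778 calls in ethanol-fed against pair-fed livers and 4472 in Mettl3 against pair-fed livers. Same-numbered livers did not deviate together (correlations across genes of -0.42 to 0.40), so the numbers are taken as names. The cause of these changes was not tested.

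Leaving out 1 library at a time, log2 fold changes in ethanol-fed against pair-fed livers ran from 1.28 to 1.83 for Fga, 1.02 to 1.58 for Fgb, 1.20 to 1.76 for Fgg and 0.40 to 0.78 for Fgl1. Genes called ran from 1538 to 4743 there, 0 to 2 in Mettl3 against ethanol-fed livers and 3342 to 5678 in Mettl3 against pair-fed livers. Of the differences in shares and ratios between Mettl3 and ethanol-fed livers, 2 changed sign. Without ethanol-fed liver 1, Hamp (-0.31) and Stat3 (-0.01) changed sign as well, as did other list members. The log2 ratio of Fga to Fgb ran from -0.042 to 0.0050, turning positive without Mettl3 liver 3 or ethanol-fed liver 1 (0.00081). The ratio of Fgl1 to the chains ran from -0.267 to 0.0728, the positive value being without ethanol-fed liver 1.

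With 3 livers per group an exact test cannot go below 0.1. The edgeR alternative foreseen was not run, because the deposited unit is FPKM; limma-voom on recovered reads stood in for it and gave 3619, 1 and 5010 calls in the 3 comparisons.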
